A study of Sus scrofa domesticus with 30 samples.

Results

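Among the 15 endometria of the series, 4 carried much more mRNA of SULT1E1 than the others, and these 4 SULT1E1-high endometria are described here against the remaining 11. They were chosen by a value measured in the same libraries, a normalized SULT1E1 value over 2000, so SULT1E1 itself is given only as a description and enters no count. The 4 animals are low iCrit replicates 1 and 6, written L1 and L6, and high iCrit replicates 4 and 6, written H4 and H6. All 15 animals, in both groups, were adult crossbred gilts (young female pigs) of Landrace and Yorkshire genetics, bred by artificial insemination and killed on pregnancy day 13. Endometrium, the lining of the uterus, came from about the middle of an opened horn, and each animal gave 1 poly(A) mRNA library and 1 small-RNA library. The study itself compared 7 gilts of low with 8 gilts of high immunocrit (iCrit), a blood measure of the antibodies a piglet takes up from colostrum, read on the first day of life. SULT1E1-high endometria made up 2 of 7 low iCrit and 2 of 8 high iCrit gilts, and other endometria made up 5 and 6. The labels give no breeding batch, litter or sire, and a piece of whole endometrium holds several cell types, so fewer cells of a type and less RNA per cell cannot be told apart.

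SULT1E1 encodes the estrogen sulfotransferase, which couples a sulfate group to estrogens so that they no longer bind the estrogen receptors. Pig conceptuses release estrogen as they elongate around this stage of pregnancy, and the uterine lining can sulfate it, while steroid sulfatase (STS) reverses the reaction. The enzyme is known in pig endometrium as a gene whose level changes with the phase of the estrous cycle and with early pregnancy.

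The normalized SULT1E1 values, on the authors' own scale with no further unit, were 7751 in L1, 3113 in L6, 3497 in H4 and 5003 in H6, against a lowest value of 244, a median of 550 and a highest value of 1446 in the other endometria. The lowest member just inside the threshold was L6 at 3113, and the highest just outside it were high iCrit replicate 7 at 1446 and high iCrit replicate 5 at 1315. The gene lies on chromosome 8, from 66811536 to 66838181 on the minus strand, in the Sscrofa11.1 build.

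**Figure D1:**
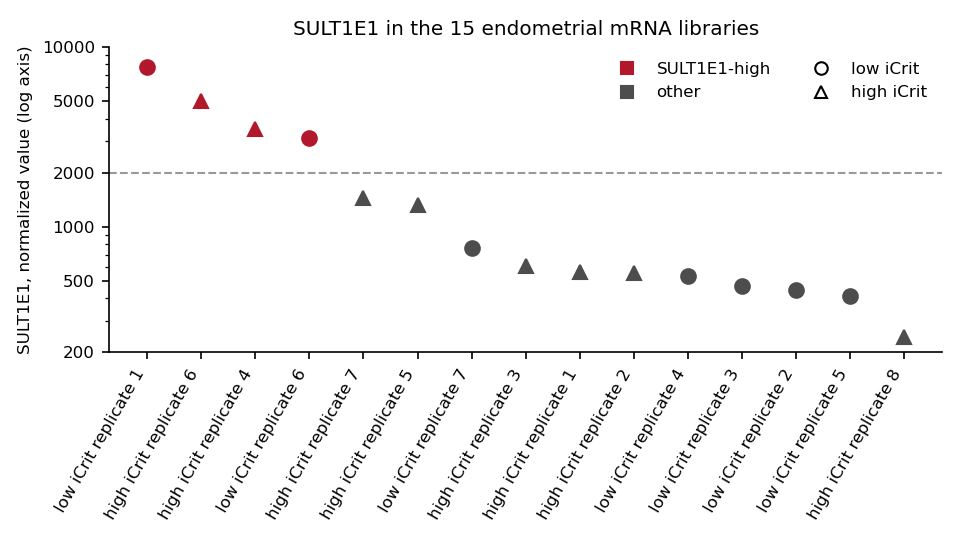
Normalized SULT1E1 value (vertical axis, log scale) in each of the 15 mRNA libraries (horizontal axis), with the 4 SULT1E1-high endometria in red at the left and the 11 others in grey. The dashed line is the threshold of 2000, circles are low iCrit and triangles high iCrit gilts, and the red points run from 3113 to 7751 with both symbols among them.

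The groups differed in depth by less than the spread between animals. The estimated mRNA depth was 36.2 ± 6.67 M reads (M, mega) in SULT1E1-high and 38.1 ± 11.2 M in other endometria (SD, n = 4 and 11, exact permutation p = 0.799 over 1365 splits), and 4 further measures of the libraries had exact permutation p between 0.326 and 0.791 (all adjusted p = 0.799). Markers of the tissue were present in all libraries: EPCAM, of epithelium, had a median of 19000 in SULT1E1-high and 16312 in other endometria, and COL1A1, of stroma, had 84096 and 66790. On a principal component analysis of all tested genes the 4 lay at 50.8 to 60.4 on the first component, which held 21.5% of the variance, and the other 11 between -45.3 and 3.6. Among the other endometria, low iCrit replicate 2 had the highest second component, at 79.0, and high iCrit replicate 7 the lowest, at -54.6. High iCrit replicate 8 lay within the range of the others on both components, at -33.7 and 7.76. These components give no reason to set replicate 8 apart. A refit left out low iCrit replicate 2 and high iCrit replicates 7 and 8, named the libraries apart further on. Without them 1504 genes were called higher and 1339 lower, counts that can be set against those that follow.

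The SULT1E1-high endometria differed from the others in a large set of genes. Of 16818 genes tested besides SULT1E1, 1200 were higher (7.14%) and 1039 were lower (6.18%), together 13.3% of the genes, by limma on log2(value + 1) with Benjamini-Hochberg adjusted p under 0.05. The median difference of those called was 0.76 (log2) among the higher and -0.82 among the lower genes. Differences over 2-fold were seen in 425 higher and 400 lower genes, and differences over 8-fold in 34 and 20. In 466 genes (2.77%) all 4 SULT1E1-high values lay above all 11 others, and in 310 (1.84%) all 4 lay below. Because the split was made from 1 value in the same libraries, an adjusted p here measures how far a gene separates along this split and not the effect of a treatment. The counts rested on few animals: without L6, H4 or H6 they fell to 682, 681 and 609 higher genes and to 611, 580 and 519 lower genes. Where leaving out a single library ended the call of a gene, the highest adjusted p so reached stands beside it with that library, and other libraries could end the same call.

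The 2 iCrit groups share no library, so the split could be read in each of them on its own. Among high iCrit gilts, 2 SULT1E1-high against 6 others, 416 genes were called higher, and 385 of them (92.5%) were also higher in the 2 SULT1E1-high low iCrit gilts, where 49.2% of all genes were. Of 343 genes called lower in high iCrit gilts, 304 (88.6%) were lower in low iCrit gilts too, where 50.8% of all genes were. The sizes were smaller in the group that had not made the call, with medians of 0.56 in low against 1.24 in high iCrit gilts for the higher genes and -0.73 against -1.40 for the lower genes. In the other direction, 66 of 73 genes called higher in low iCrit gilts (90.4%) were higher in high iCrit gilts, where 48.6% of all genes were. Of 24 called lower, 23 (95.8%) were lower there, as were 51.4% of all genes. Genes that vary together are not independent, so these counts are a description over 2 SULT1E1-high animals in each group. No gene passed a test of the difference between the 2 iCrit groups (0 of 16818 by limma's interaction term, smallest adjusted p = 0.227, 1448 at an unadjusted p under 0.05). With 2 SULT1E1-high animals in each group this test could miss differences, so it does not show that the groups were alike.

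**Figure D2:**
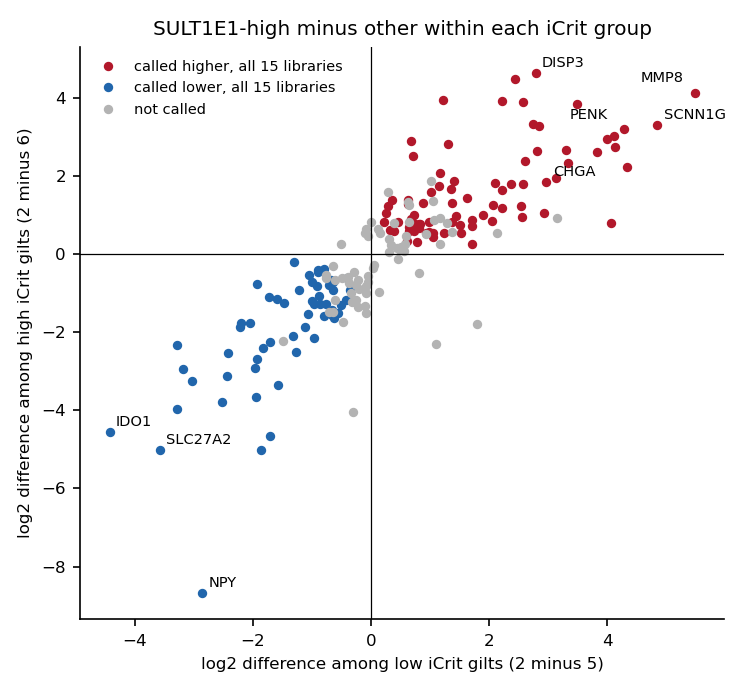
Difference between SULT1E1-high and other endometria in log2(value + 1), among low iCrit gilts (horizontal axis, 2 minus 5) and among high iCrit gilts (vertical axis, 2 minus 6), for the genes taken by the rule for named genes or named in the text. Red and blue points are genes called higher and lower over all 15 libraries, grey points are not called, and NPY reached -2.86 in low and -8.68 in high iCrit gilts.

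Among the other 11 endometria, the 2 with the highest SULT1E1 lay nearest to the 4 on the first principal component, high iCrit replicate 7 at 3.6 and high iCrit replicate 5 at -4.71, where the remaining 9 ran from -45.3 to -8.39 and the 4 began at 50.8. In the cell cycle list, described further on, these 2 also had the highest mean log2 level of the others, 0.59 and 0.40 above the average of all libraries, against 0.14 to 0.89 in the 4. Not all lists placed them so. In the motile cilia list they stood at -0.22 and -0.57, against 0.05 to 0.58 in the 4. Called genes were also placed between 0, the mean of the 11, and 1, that of the 4. Over the genes called higher, replicates 7 and 5 had median positions of 0.04 and 0.10, and low iCrit replicate 5 had 0.09. Over the genes called lower they had 0.10 and 0.06, and low iCrit replicate 4 had 0.12. Within the 11, the Spearman correlation with SULT1E1 was positive for 46.0% of the genes called higher and for 48.7% of all genes, and negative for 46.6% of the genes called lower, given here as a description over 11 libraries. Among the genes most like SULT1E1 in these 11 libraries were ACAT1, DAP3, SLC5A4 and ATP5F1, with Spearman rho between 0.90 and 0.95, and those most opposed were ICMT, GATA2 and FOXK2, with rho between -0.95 and -0.92. None of ACAT1, DAP3, SLC5A4 and ATP5F1 was called between the groups in limma (unadjusted p = 0.0334 for ACAT1). ACAT1 was lower in the SULT1E1-high endometria, by -0.22 in low and -0.65 in high iCrit gilts. In the same order DAP3 differed by 0.05 and -0.27, SLC5A4 by 1.11 and -2.30 and ATP5F1 by 0.44 and 0.16.

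MMP8 and PENK were named with SULT1E1 as markers of these endometria from earlier results, so their tests are no independent support. MMP8 encodes neutrophil collagenase, a secreted protease that cuts fibrillar collagen. Its values were 19468 in L1, 5059 in L6, 10423 in H4 and 13144 in H6, against a lowest of 17.8, a median of 603 and a highest of 4636 in the other endometria. All 4 lay above all others, but the lowest of them, L6, was close to the highest other library. The difference in log2 was 4.74 ± 1.22 (SE), and the limma adjusted p of 0.0194 became 0.0504 without L1, 0.0513 without H4 and 0.0595 without H6. PENK encodes proenkephalin, the precursor of the enkephalin opioid peptides. It had values of 863 in L1, 1104 in L6, 357 in H4 and 1153 in H6, against a lowest of 19.6, a median of 58.0 and a highest of 245 in the other endometria (3.72 ± 0.54, adjusted p = 0.000635). The groups did not overlap, and H4 lay nearest to the others.

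Of 28 tested opioid and neuropeptide genes, 6 were called higher and 1 lower (25%, against 13.3% of all genes), while the median difference of the list was -0.11, against -0.01 over all genes. The 6 include the marker PENK, so this share is no independent support either. The counts of this and the following lists are read against the 7.14% of all tested genes called higher and the 6.18% called lower. TAC3, the neurokinin B precursor, averaged 20.6 ± 2.77 in SULT1E1-high and 5.49 ± 4.13 in other endometria (SD, adjusted p = 0.00813). OPRD1, the delta opioid receptor at which enkephalins act, averaged 55.7 ± 17.8 and 22.9 ± 9.79 (adjusted p = 0.0242, and 0.0653 without L6 and 0.0985 without H6). CHGA, the granule protein chromogranin A, averaged 781 ± 961 and 125 ± 109, with L6 at 2217 far above the other 3 (adjusted p = 0.0282, and 0.125 without L6). The prohormone convertases PCSK1 and PCSK2, which cut peptide precursors, were at low values, with means of 14 and 8.21 in SULT1E1-high and 3.05 and 1.86 in other endometria. Their adjusted p of 0.0335 and 0.0362 went up to 0.125 (without L6) and 0.131 (without L1). NPY, neuropeptide Y, had the largest fall among the named genes, with 7.23, 6.37, 1 and 3.73 in L1, L6, H4 and H6, and a lowest of 1, a median of 717 and a highest of 11066 in the other endometria. These groups overlapped, since an other library also stood at the floor of 1, and the adjusted p of 0.0332 reached 0.0989 without H4.

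Of the 4 subunits of the epithelial sodium channel, which takes up sodium from the lumen of epithelia, 3 were called higher and the alpha subunit was not. SCNN1G, the gamma subunit, had values of 7855 in L1, 7668 in L6, 2405 in H4 and 4404 in H6, against a lowest of 173, a median of 255 and a highest of 876 in the other endometria (4.07 ± 0.37, adjusted p = 2.83e-05). SCNN1B, the beta subunit, had 7226, 6008, 4002 and 5899 in L1, L6, H4 and H6, against a lowest of 309, a median of 1016 and a highest of 3783 (2.51 ± 0.41, adjusted p = 0.00129). For neither subunit did the groups overlap. SCNN1D, the delta subunit, averaged 261 ± 112 in SULT1E1-high and 44.4 ± 14.4 in other endometria (2.50 ± 0.30, adjusted p = 0.000184). SCNN1A, the alpha subunit, averaged 8707 ± 651 and 7879 ± 1481, a difference of 0.16 ± 0.14 that did not pass (adjusted p = 0.481). The 4 subunits were read as a family after these values had been seen.

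In the list of ion, calcium and water transport, which includes SCNN1G and SCNN1B, 9 of 46 tested members were called higher and 2 lower (23.9%, against 13.3% of all genes). Of the 46, 26 had higher and 20 lower means, with a median of 0.10. The water channel AQP5 was low throughout, at 13.1 to 31.7 in SULT1E1-high and 1 to 14.3 in other endometria (2.74 ± 0.51, adjusted p = 0.00312). AQP3, which also passes glycerol, averaged 3854 ± 3003 and 615 ± 402 (adjusted p = 0.0111, and 0.0540 without H4). The sodium-proton exchanger SLC9A3 averaged 40.9 ± 21.3 and 9.75 ± 4.83 (adjusted p = 0.0129). KCNQ1, a potassium channel of epithelia and heart, was lower, at 1562 ± 924 and 3894 ± 1382 (-1.39 ± 0.30, adjusted p = 0.00761), with H4 at 2945 within the range of the others.

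**Figure D3:**
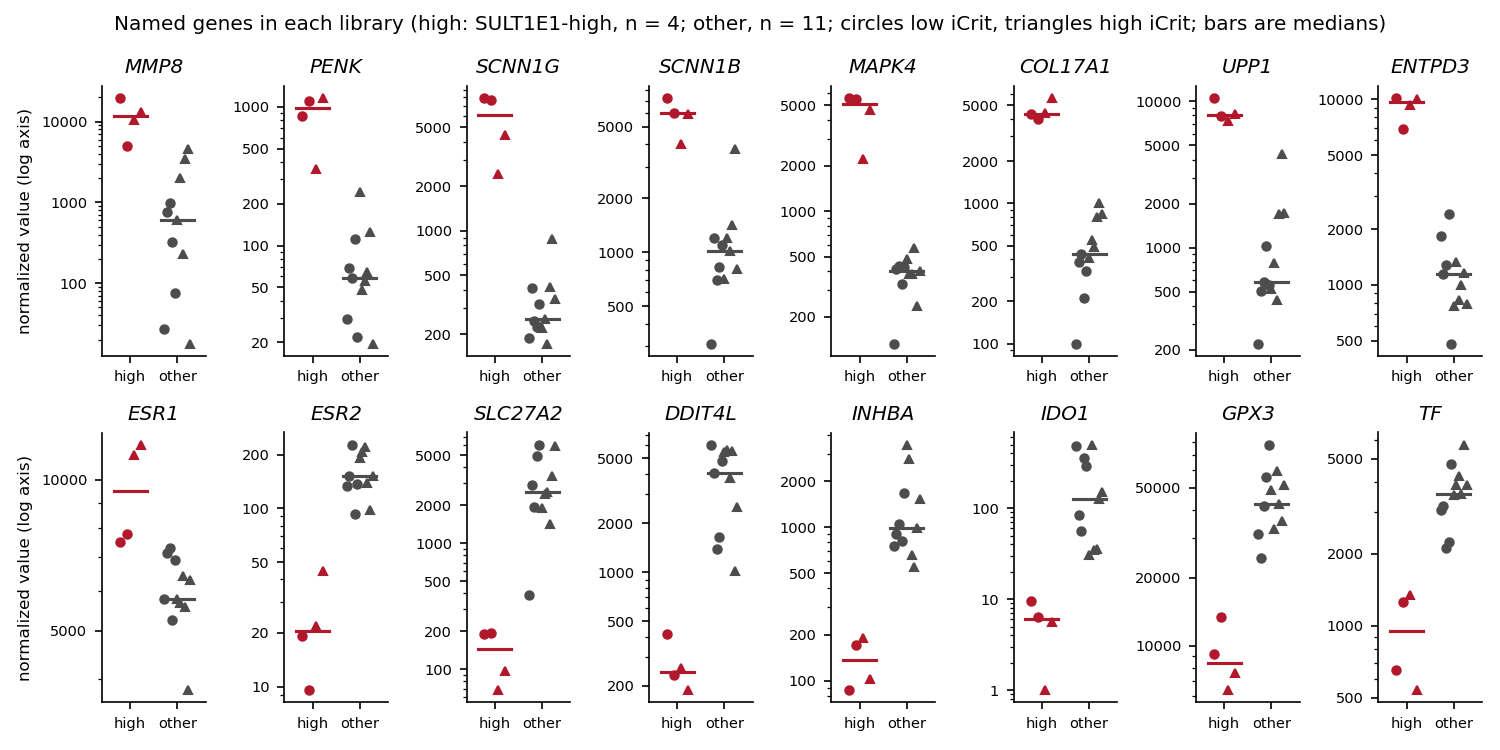
Normalized values (log axes) of 16 named genes in each library, SULT1E1-high endometria in red at the left of each panel (n = 4) and other endometria in grey (n = 11), with the median of each group as a bar. Circles are low iCrit and triangles high iCrit gilts. In all 16 panels the red points lie wholly above or wholly below the grey ones, narrowly for ESR1, whose lowest red value was 7515 and highest grey value 7296.

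Of the 12 largest rises among well expressed genes, MMP8 and SCNN1G stood at 4.74 and 4.07 and the other 10 between 2.76 and 3.72. MAPK4, an atypical MAP kinase, had values of 5579 in L1, 5543 in L6, 2228 in H4 and 4693 in H6, against 133 to 574 in the other endometria, median 405 (3.55 ± 0.31, adjusted p = 2.83e-05). ENTPD3, a cell surface enzyme that breaks down extracellular ATP, had 10132, 6947, 9334 and 10089 in L1, L6, H4 and H6, against 482 to 2406 with a median of 1145 (3.06 ± 0.30, adjusted p = 3.53e-05). UPP1, uridine phosphorylase, had 10483, 7966, 7318 and 8200, against 221 to 4373 with a median of 582 (3.39 ± 0.54, adjusted p = 0.00114). In these 3 genes the SULT1E1-high values lay above all others, with the widest gap in MAPK4 and ENTPD3. COL17A1, a collagen of hemidesmosomes that anchors basal epithelium, averaged 4594 ± 706 in SULT1E1-high and 505 ± 276 in other endometria (3.41 ± 0.44, adjusted p = 0.000278). STEAP4, a metalloreductase, averaged 2879 ± 979 and 330 ± 170 (3.21 ± 0.36, adjusted p = 0.000149). MFAP5, a microfibril protein of the matrix, averaged 3855 ± 1920 and 486 ± 179 (2.97 ± 0.33, adjusted p = 0.00014). DISP3, COLCA1, IL17REL and CHI3L1 complete the 12, at differences of 3.72, 3.22, 3.07 and 2.76 and adjusted p of 0.00641, 0.00355, 0.00114 and 0.00813. The groups did not overlap for COLCA1 and IL17REL and overlapped for DISP3 and CHI3L1.

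Among the 12 largest falls, SLC27A2, a fatty acid transporter and acyl-CoA synthetase, had values of 190 in L1, 194 in L6, 67.9 in H4 and 97.1 in H6, against a lowest of 385, a median of 2544 and a highest of 6055 in the other endometria (-4.30 ± 0.54, adjusted p = 0.000261). DDIT4L, which dampens mTOR signalling, had 420, 234, 256 and 189 in L1, L6, H4 and H6, against 1011 to 6056 with a median of 4077 (-3.63 ± 0.44, adjusted p = 0.000184). INHBA, the subunit that forms activin A, had 86.8, 171, 188 and 103 in the same animals, against 554 to 3447 with a median of 996 (-3.15 ± 0.41, adjusted p = 0.000303). For none of these 3 did the groups overlap. These INHBA values belong to the row on chromosome 18, from 52889684 to 52909260. A second row with the same symbol, on chromosome 12 from 53115379 to 53117128, averaged 1271 ± 194 and 1254 ± 155, and the files do not say how reads were shared between them. MAP2K6, a kinase upstream of p38, averaged 150 ± 63.5 in SULT1E1-high and 1135 ± 620 in other endometria (-2.80 ± 0.39, adjusted p = 0.000418). KMO, a kynurenine hydroxylase, averaged 574 ± 256 and 3259 ± 2096 (-2.44 ± 0.37, adjusted p = 0.000894). FXYD2, a small regulator of the sodium pump, averaged 145 ± 83.2 and 1389 ± 1152 (-3.06 ± 0.55, adjusted p = 0.00241). THY1, IGFBP2 and DIRAS2 had differences of -3.28, -2.53 and -3.45 with overlapping groups (adjusted p = 0.0105, 0.00921 and 0.00941).

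The estrogen receptors differed in opposite directions. ESR1, the main uterine estrogen receptor, had values of 7515 in L1, 7802 in L6, 11203 in H4 and 11741 in H6, against 3805 to 7296 with a median of 5785 in the other endometria (0.66 ± 0.16, adjusted p = 0.0129). ESR2, the beta receptor, had 19.3, 9.56, 21.9 and 44.8 in L1, L6, H4 and H6, against 92.7 to 227 with a median of 152 (-2.82 ± 0.32, adjusted p = 0.000149). Neither pair of groups overlapped, though for ESR1 the margin was small and the call was lost without H4 (adjusted p = 0.0567) and without H6 (0.0650). GPER1, a membrane receptor that responds to estrogen, averaged 2149 ± 451 in SULT1E1-high and 762 ± 467 in other endometria (1.64 ± 0.33, adjusted p = 0.00523). The progesterone receptor PGR averaged 359 ± 99.0 and 263 ± 47.4 (0.43 ± 0.19, adjusted p = 0.138). Of 31 tested hormone receptors and coregulators 6 were called higher and 4 lower (32.3%, against 13.3% of all genes), with a median of 0.13. The glucocorticoid receptor NR3C1 was lower, at 1931 ± 199 and 3088 ± 478 (-0.66 ± 0.13, adjusted p = 0.00517). The receptor chaperone FKBP4 was higher, at 16339 ± 6278 and 8148 ± 1322 (0.95 ± 0.18, adjusted p = 0.00356). The relaxin receptor RXFP1 averaged 2174 ± 633 and 1217 ± 635 and did not pass (adjusted p = 0.0838).

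The remaining genes of estrogen and steroid metabolism showed little of this. Of 33 tested, 3 were called higher (SLC26A2, HSD17B7 and SLCO4A1) and 1 lower (AKR1C1), and the median was 0.03. SLC26A2, a sulfate transporter, averaged 5159 ± 543 in SULT1E1-high and 3731 ± 575 in other endometria (0.48 ± 0.13, adjusted p = 0.0226, and 0.0799 without L6). HSD17B7, an enzyme of estradiol and cholesterol synthesis, averaged 4406 ± 1237 and 2563 ± 718 (adjusted p = 0.0228, and 0.0800 without L1). SLCO4A1, an organic anion transporter, averaged 60.9 ± 29.4 and 25.2 ± 11.9 (adjusted p = 0.0397, and 0.131 without L1). AKR1C1, a hydroxysteroid dehydrogenase, averaged 59.9 ± 13.9 and 304 ± 304 (adjusted p = 0.0284, and 0.0794 without L6). It is 1 of 2 rows with that symbol, the one with the higher mean. STS averaged 53.6 ± 17.5 and 76.3 ± 110 (0.12 ± 0.60, adjusted p = 0.922). HSD17B2, which turns estradiol into estrone, averaged 1136 ± 662 and 674 ± 380 (adjusted p = 0.352). PAPSS2, which makes the sulfate donor of sulfotransferases, averaged 1778 ± 482 and 2714 ± 1346 (adjusted p = 0.355).

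Targets of the estrogen released by conceptuses did not move as 1 set. Of 34 such targets and receptivity genes, 2 were called higher, 5 lower, and the median was 0.10. LPAR3, a lysophosphatidic acid receptor induced by conceptus estrogen in the pig, averaged 3787 ± 2675 in SULT1E1-high and 985 ± 1074 in other endometria (2.36 ± 0.71), and its adjusted p of 0.0382 was lost in 9 of the 15 cases of leaving out 1 library, reaching 0.137 without L6. UPK1B, a uroplakin of surface epithelium, had 94.0, 15.9, 118 and 119 in L1, L6, H4 and H6, against 1.73 to 12.3 in the other endometria (3.5 ± 0.58, adjusted p = 0.0014). It was the only 1 of 5 tested uroplakins that was called. TGFB2 averaged 928 ± 573 and 3408 ± 1091 (-1.92 ± 0.39, adjusted p = 0.00523). EDNRB, an endothelin receptor, averaged 2517 ± 840 and 8179 ± 2148 (-1.71 ± 0.26, adjusted p = 0.000962). NMB, IL6ST and ITGAV were the other 3 called lower, with differences of -1.58, -1.32 and -0.67, and each call was lost with some library left out (adjusted p up to 0.0514, 0.0559 and 0.148). Several well known targets of the conceptus were not called: STC1 averaged 1509 ± 900 and 6469 ± 4380 (adjusted p = 0.0856), FGF7 21333 ± 13339 and 12379 ± 4642 (0.189), AKR1B1 69747 ± 15573 and 34676 ± 42901 (0.144), SLC5A1 14782 ± 5445 and 9588 ± 8938 (0.307), SPP1 1346 ± 521 and 2641 ± 1809 (0.188) and MUC4 4776 ± 1888 and 8232 ± 4964 (0.514).

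In prostaglandin synthesis and signalling 1 of 29 tested genes was called higher and 2 lower, with a median of -0.19. The carbonyl reductase CBR2 had 1305, 3283, 2895 and 2088 in L1, L6, H4 and H6, against 3965 to 22727 with a median of 10671 in the other endometria (-2.15 ± 0.38, adjusted p = 0.0024). PTGFR, the receptor of prostaglandin F2 alpha, had 668, 363, 596 and 823, against 940 to 4847 with a median of 2179 (-1.98 ± 0.36, adjusted p = 0.00262). All SULT1E1-high values of both genes lay below the others. PTGES, a prostaglandin E synthase, averaged 1074 ± 306 and 462 ± 162 (1.26 ± 0.29, adjusted p = 0.0111, and 0.0532 without H6). PTGS2, the inducible cyclooxygenase, averaged 7842 ± 2310 and 6994 ± 3334 (adjusted p = 0.67).

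Of 39 tested secreted proteins of the histotroph, the fluid that feeds the conceptus, 1 was called higher and 4 lower, with a median of -0.19. Their share called, 12.8%, was close to the 13.3% of all genes. GPX3, an extracellular glutathione peroxidase, had 9205, 13356, 6356 and 7541 in L1, L6, H4 and H6, against 24561 to 77480 with a median of 42313 in the other endometria (-2.31 ± 0.26, adjusted p = 0.000149). TF, transferrin, had 651, 1257, 1348 and 538, against 2121 to 5728 with a median of 3571 (-2.0 ± 0.26, adjusted p = 0.000303). For both genes the groups did not overlap. CLU, clusterin, averaged 22145 ± 9021 in SULT1E1-high and 47965 ± 11938 in other endometria (-1.15 ± 0.25, adjusted p = 0.00761). APOD was the fourth gene called lower, and without H6 its adjusted p was 0.144. LGALS9, galectin 9, was higher at 8860 ± 3070 and 3354 ± 1419 (1.43 ± 0.27, adjusted p = 0.00342).

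Lists of immune cells, class II antigen presentation and the interferon response mostly had medians under 0. The neutrophil and eosinophil list was at 0.15. The share of their genes called lower ran from 0% of mast cell markers to 25% of class II genes, against 6.18% of all genes. None of 52 interferon response genes was called higher and 5 were called lower (9.62%), with a median of -0.15. IDO1, which breaks down tryptophan and is induced by interferon gamma, had 9.64 in L1, 6.37 in L6, 1 in H4 and 5.60 in H6, against 30.8 to 498 with a median of 126 in the other endometria (-4.44 ± 0.76, adjusted p = 0.00174). CXCL9, a T cell chemokine, had 9.64, 7.97, 4.38 and 5.60 in the same animals, against 13.9 to 800 with a median of 67.9 (-3.18 ± 0.82, adjusted p = 0.0193, and 0.0595 without H6 and 0.0613 without H4). The groups did not overlap for either gene. GBP1, a guanylate-binding protein induced by interferon, GBP2 and IRF8 were the other 3 called lower, with differences of -2.47, -2.04 and -1.21, and each call was lost with some library left out (adjusted p up to 0.0763, 0.0998 and 0.0613). IFNG, which elongating pig conceptuses also make, had 1, 139, 2.19 and 1.87 in L1, L6, H4 and H6 and 1 to 2803 with a median of 35.8 in the other endometria, and did not pass (adjusted p = 0.381). The trophoblast factor HAND1 was at the floor in 3 of the 4 SULT1E1-high and in 1 of the 11 other endometria, where it reached 471, and CDX2 was at the floor in 3 of 4 and 8 of 11. The part of conceptus tissue in these differences was not tested.

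All 12 tested class II antigen presentation genes had lower means in SULT1E1-high endometria, with a median of -0.78, and 3 passed. CIITA, the master regulator of class II genes, averaged 659 ± 75.6 in SULT1E1-high and 1597 ± 836 in other endometria (-1.12 ± 0.33, adjusted p = 0.0341, and 0.0991 without H4). SLA-DQB1 averaged 3094 ± 739 and 5557 ± 1933 (adjusted p = 0.0301, and 0.113 without H4), and SLA-DOB was the third (adjusted p = 0.0408, and 0.169 without H4). Of 40 markers of T and NK cells 37 were lower, with a median of -0.45, and 1 passed (2.5%, CD3G, -0.93, adjusted p = 0.0385, and 0.117 without H4). Relative to the average of all libraries, the mean log2 level of this list was -0.56 to 0.06 in the 4. In the others it was -0.31 to 0.93, with high iCrit replicates 2 (0.93) and 8 (0.82) and low iCrit replicate 7 (0.39) highest. The class II list was highest in high iCrit replicates 8 (1.09) and 2 (0.75) and low iCrit replicate 2 (0.65). How far these libraries set the list medians was not tested. Of 24 macrophage and dendritic cell markers 18 were lower, with a median of -0.31, and TLR4 and CD14 passed (8.33%), CD14 with an adjusted p of 0.0359 that reached 0.128 without H6. TLR4, a receptor of bacterial lipopolysaccharide, averaged 1503 ± 294 and 3024 ± 925 (-0.97 ± 0.22, adjusted p = 0.00941). Of 20 markers of B and plasma cells 12 were lower, with a median of -0.21, but the 2 that passed were higher. SDC1, syndecan 1, which epithelia also make, averaged 1943 ± 1139 and 577 ± 209 (1.67 ± 0.35, adjusted p = 0.00694), and MZB1, of antibody-secreting cells, 476 ± 344 and 98.6 ± 32.2 (adjusted p = 0.0252, and 0.117 without H6). L6 was the highest of the 4 in the T and NK, the macrophage and the B and plasma cell lists, with a mean log2 level 0.32 above the average of all libraries for the macrophage list, where the other 3 were 0.54 to 0.32 below it, and 0.38 above it for the B and plasma cell list. The summed level of the T and NK list was 3186 to 5313 in SULT1E1-high and 3949 to 9827 in other endometria, and that of the class II list 23485 to 42153 and 32953 to 92790. These ranges overlapped. The summed interferon list was 138016 to 176471 in SULT1E1-high and 111903 to 366013 in other endometria, so the 11 others spread more widely than the 4. The mean log2 level of the interferon list was -0.68 to 0.05 in the 4 and -0.59 to 1.57 in the others. It was highest in high iCrit replicate 2 (1.57) and low iCrit replicate 2 (1.08).

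MMP8 is a classical neutrophil gene, and a neutrophil and eosinophil list that includes it was read beside it. Of the 16 tested members of this list MMP8 and PGLYRP1 were called higher (PGLYRP1 with an adjusted p of 0.0224, and 0.102 without H4), 1 was called lower, and the median was 0.15. The mean log2 level of the list, relative to the average of all libraries, was 0.21 to 0.55 in SULT1E1-high endometria. In other endometria it was -1.56 to 0.54. Both the counts and the level of this list include the marker MMP8, so they are no independent support. The part of neutrophils in the MMP8 difference was not tested. The calgranulin S100A8 ranged from 5288 to 9623 in SULT1E1-high and from 69.4 to 16215 in other endometria, and S100A9 from 13629 to 27050 and from 763 to 57740. MPO, a neutrophil enzyme, was at the floor in 3 of the 4 and in all 11 others, and its highest value was 1.59. The receptor CXCR2 reached 7.17 in SULT1E1-high and 6 in other endometria, and was at the floor in 1 of the 4 and 5 of the 11. MMP9 had medians of 19.6 in SULT1E1-high and 12.5 in other endometria, and CSF3R of 114 and 135. Among 38 metalloproteinases and inhibitors 5 were called higher and 2 lower (18.4%, against 13.3% of all genes). The 5 include the marker MMP8, so this share is no independent support. SERPINB2, plasminogen activator inhibitor 2, averaged 620 ± 326 in SULT1E1-high and 69.9 ± 50.4 in other endometria (3.25 ± 0.58, adjusted p = 0.00234). ADAM17, a protease that sheds growth factors and cytokines from the cell surface, averaged 4320 ± 574 and 2598 ± 419 (0.74 ± 0.13, adjusted p = 0.0024). MMP14 and TIMP4 were the other 2 called higher, at 0.56 and 0.89 (adjusted p = 0.0387 and 0.0296, up to 0.168 and 0.133 with a library left out). MMP2, gelatinase A, averaged 18510 ± 7604 and 40122 ± 11704 (-1.13 ± 0.30, adjusted p = 0.0232, and 0.0987 without H4). MMP3, the other gene called lower, did not exceed 1.87 and 6.18 (adjusted p = 0.0367, and 0.0980 without H4).

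Inflammatory signalling genes split. Of 45 cytokines, chemokines and their regulators 7 were called higher and 3 lower. CCL28, a mucosal chemokine, averaged 4289 ± 2131 in SULT1E1-high and 1093 ± 664 in other endometria (2.08 ± 0.46, adjusted p = 0.00892). IL15, a growth factor of NK cells, averaged 102 ± 27.1 and 261 ± 98.7 (-1.30 ± 0.27, adjusted p = 0.00632), and IL18BP, which binds interleukin 18, 1203 ± 187 and 2200 ± 393 (-0.86 ± 0.14, adjusted p = 0.00154). IL1B averaged 41.6 ± 73.2 and 25.9 ± 30.9 (adjusted p = 0.98), with L6 at 151 and the other 3 under 7. Within the NF-kB family, read after these values had been seen, 5 of 12 genes were called higher and 2 lower (58.3%, against 13.3% of all genes). RELB, a subunit of the non-canonical pathway, had 2242, 1168, 1589 and 2247 in L1, L6, H4 and H6, against 311 to 945 with a median of 622 in the other endometria (1.52 ± 0.24, adjusted p = 0.00109). Its partner NFKB2 averaged 3582 ± 829 and 2153 ± 247 (0.71 ± 0.13, adjusted p = 0.00241). NFKBIZ, an atypical inhibitor, averaged 643 ± 237 and 1611 ± 398 (-1.37 ± 0.23, adjusted p = 0.00181). All 4 SULT1E1-high values of RELB and NFKB2 lay above the others, and those of NFKBIZ below.

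Genes of cell division and of lipid synthesis mostly had higher means. Of 49 cell cycle genes 44 had higher means, with a median of 0.76, and 14 were called higher and 1 lower (30.6%, against 13.3% of all genes). RRM2, which supplies deoxynucleotides, averaged 615 ± 231 in SULT1E1-high and 196 ± 120 in other endometria (1.73 ± 0.35, adjusted p = 0.00541). FOXM1, a regulator of mitotic genes, averaged 201 ± 59.4 and 65.9 ± 28.8 (1.68 ± 0.36, adjusted p = 0.0072), and MCM3, of the replicative helicase, 650 ± 60.4 and 313 ± 78.0 (1.08 ± 0.18, adjusted p = 0.00169). MKI67 averaged 1238 ± 389 and 491 ± 243 (adjusted p = 0.0171, and 0.0506, 0.0573 and 0.0559 without L1, L6 and H6). CDC45, which works with MCM3 in that helicase, went the other way, at 470 ± 78.0 and 748 ± 124 (-0.67 ± 0.14, adjusted p = 0.00792). Of 38 cholesterol and lipid genes 31 had higher means, with a median of 0.31, and 9 were called higher. ACLY, which makes cytosolic acetyl-CoA, had 7874, 9595, 10258 and 11031 in L1, L6, H4 and H6, against 4386 to 6540 with a median of 5307 (0.86 ± 0.11, adjusted p = 0.000278). FASN, fatty acid synthase, had 5498, 7027, 10045 and 10988, against 3348 to 5069 with a median of 3833 (1.01 ± 0.17, adjusted p = 0.0014). Neither gene overlapped between groups, and in both H4 and H6 were the highest. SREBF2, which switches on cholesterol synthesis, averaged 13957 ± 1835 and 8978 ± 1606 (0.65 ± 0.15, adjusted p = 0.00929). CD36, a fatty acid receptor, was the 1 gene of this list called lower (-1.0, adjusted p = 0.0359, and 0.128 without H4).

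The glucose transporters SLC2A3 and SLC2A1 were called in opposite directions. SLC2A3 had 4111, 2700, 1766 and 3791 in L1, L6, H4 and H6, against 320 to 1240 with a median of 686 in the other endometria (2.08 ± 0.30, adjusted p = 0.000593), with no overlap. SLC2A1 had 9734, 11898, 8100 and 11384, against 7535 to 69038 with a median of 28523 (-1.52 ± 0.39, adjusted p = 0.0181, and 0.0629 without H4), with overlap at the low end. HK2, a hexokinase, averaged 602 ± 294 and 48.7 ± 32.4 (3.64 ± 0.48, adjusted p = 0.000303). Of 20 genes of glycolysis, a list drawn up after HK2 had been seen, 16 had higher means, 6 were called higher and 14 did not pass (30% called, against 13.3% of all genes), with a median of 0.44. PKM, pyruvate kinase, averaged 16818 ± 2747 and 9897 ± 1069 (0.76 ± 0.12, adjusted p = 0.00105), and GAPDH 22835 ± 3428 and 12906 ± 4004 (adjusted p = 0.0122, and 0.0526 without L6). HIF1A, the oxygen-sensitive factor that drives several of these enzymes, averaged 9973 ± 2129 and 5383 ± 1397 (0.91 ± 0.21, adjusted p = 0.0118, and 0.0521 without L6). Among the 44 solute carriers of nutrient transport, 5 were called higher and 3 lower. SLC6A9, a glycine transporter, averaged 1130 ± 194 and 382 ± 146 (1.65 ± 0.29, adjusted p = 0.00241), and SLC43A2, an amino acid transporter, 2562 ± 389 and 5538 ± 1289 (-1.09 ± 0.18, adjusted p = 0.00149).

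Epithelial genes leaned higher, with 29 of 38 above the others in mean, a median of 0.32 and 6 called. KRT19 averaged 10528 ± 3606 in SULT1E1-high and 4850 ± 1342 in other endometria (1.09 ± 0.23, adjusted p = 0.00677). KRT8 averaged 38530 ± 2840 and 23798 ± 5151 (0.73 ± 0.19, adjusted p = 0.0208, and 0.0563 without H4 and 0.0650 without H6). The summed level of the epithelial list was 352061 to 384771 in SULT1E1-high and 235202 to 363196 in other endometria. Its mean log2 level, relative to the average of all libraries, was 0.128 to 0.290 and -0.651 to 0.065, without overlap. KRT8, KRT18, ELF5 and S100A14 were also the 4 trophoblast list genes called higher, of 29 tested (the adjusted p of the last 3 was 0.0518, 0.0756 and 0.137 without H4), while the placental steroid enzymes CYP17A1 and CYP19A1 had medians of 5.15 and 38.6 in SULT1E1-high and 8.75 and 42.4 in other endometria and were not called (adjusted p = 0.648 and 0.722). The trophoblast list as a whole leaned the other way, with 20 of 29 members lower in mean, 9 higher and a median of -0.17. Its share called was 13.8%, against 13.3% of all genes. The gland factor FOXA2 averaged 2517 ± 941 and 2645 ± 554 (adjusted p = 0.725), and SOX17, which acts in gland formation in the mouse, 11800 ± 867 and 8620 ± 1213 (0.46 ± 0.12, adjusted p = 0.0191, and 0.0523 without H4 and 0.0666 without L6). Of 37 genes of motile cilia 34 had higher means, with a median of 0.49, and 2 passed, DNAH6 and DNAI1, whose adjusted p of 0.0427 and 0.0471 went up to 0.168 and 0.174 without H6.

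Stromal and muscle genes had medians above 0, with L6 far above the other 3. Of 40 stromal and matrix genes 8 were called higher and 1 lower (22.5%, against 13.3% of all genes), with a median of 0.34. The mean log2 level of this list, relative to the average of all libraries, was 0.08 in L1, 0.99 in L6, -0.21 in H4 and 0.17 in H6, against -0.38 to 0.29 in the other endometria, so that L6 alone lay above the others. COL14A1, which binds collagen fibrils, averaged 5903 ± 2168 in SULT1E1-high and 2497 ± 670 in other endometria (1.21 ± 0.23, adjusted p = 0.00339), and COL6A3 13811 ± 5738 and 6559 ± 1737 (1.03 ± 0.23, adjusted p = 0.00973). L6 was the highest of the 4 for both. The summed level of the list was 376912 to 975756 in SULT1E1-high, with L6 the highest, and 324842 to 518195 in other endometria. Of 21 smooth muscle markers 2 were called higher (9.52%), with a median of 0.35. Smooth muscle actin ACTA2 had 5528, 10339, 6098 and 5894 in L1, L6, H4 and H6, against 1981 to 5080 (1.10 ± 0.25, adjusted p = 0.0097). Growth factors and their receptors gave 2 of 48 higher and 3 lower. FGF18 averaged 98.1 ± 21.5 and 13.2 ± 8.79 (3.07 ± 0.51, adjusted p = 0.00155), HGF 203 ± 42.4 and 441 ± 126 (-1.08 ± 0.23, adjusted p = 0.00623) and KITLG 1578 ± 381 and 2714 ± 671 (-0.77 ± 0.19, adjusted p = 0.0167, and 0.0716 without H4 and 0.0670 without H6). No gene was called among 29 genes of the respiratory chain (median 0.04), 67 cytosolic ribosomal proteins (median 0.05), 12 erythroid and platelet markers (median 0.53) or 6 mast cell markers (median -0.21).

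**Figure D4:**
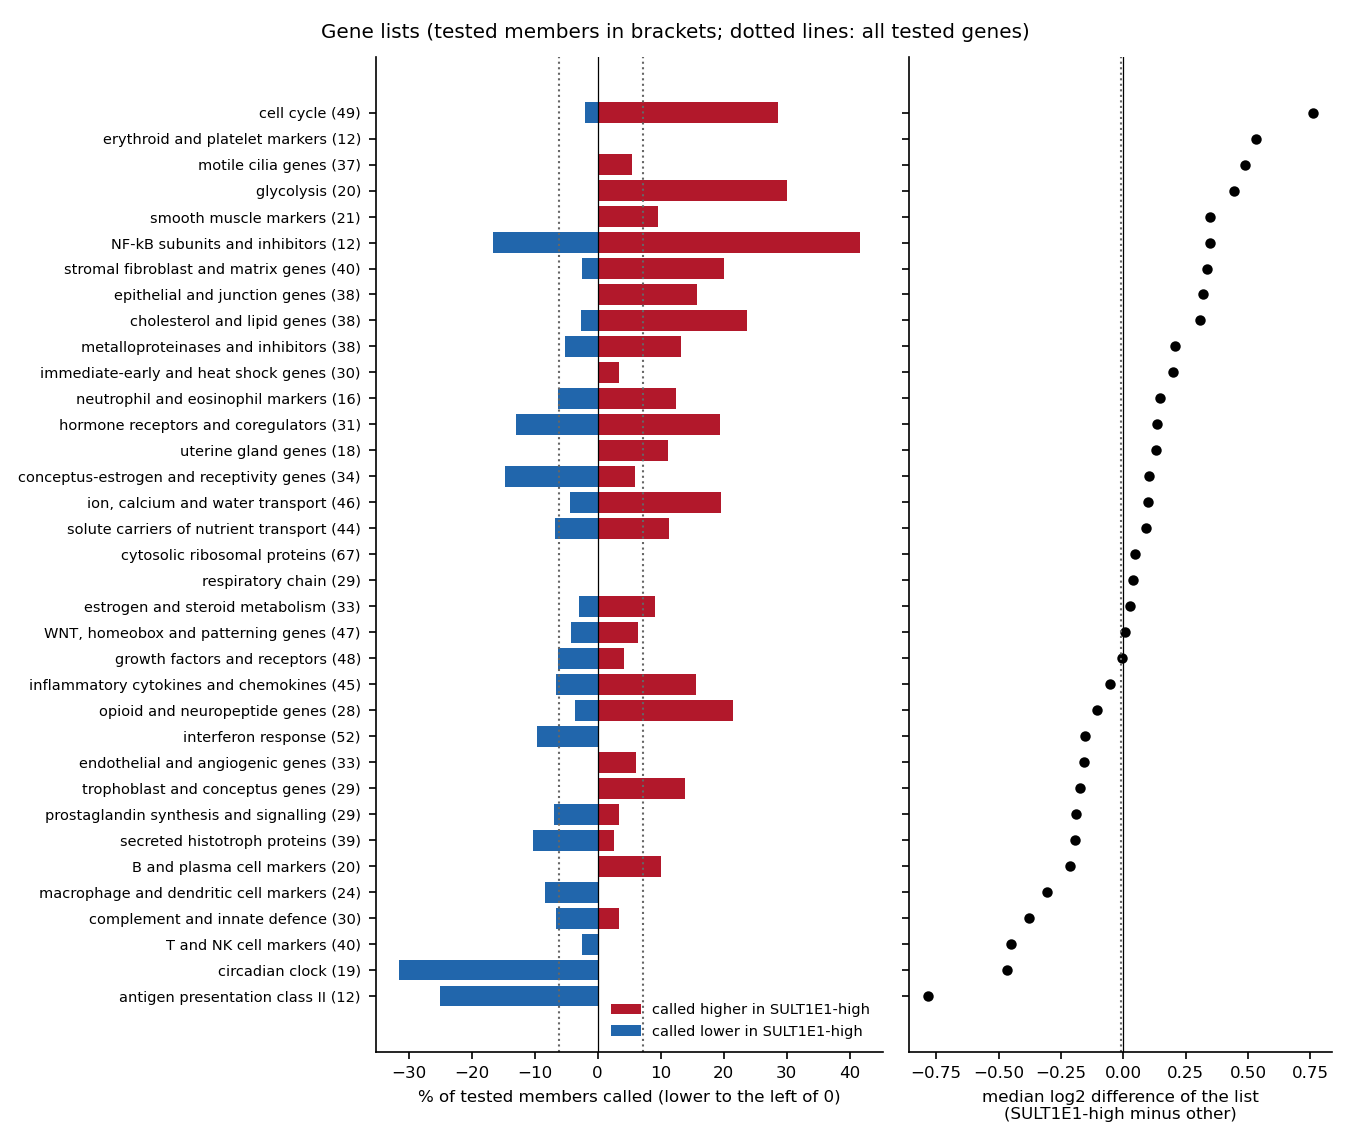
For each gene list with at least 10 tested members (number in brackets), the left panel gives the percentage of members called higher (red) and lower (blue) in SULT1E1-high endometria, and the right panel the median log2 difference, SULT1E1-high minus other. Dotted lines are the values over all tested genes, 7.14% higher, 6.18% lower and a median of -0.01. Cell cycle genes have the highest median (0.76) and class II genes the lowest (-0.78).

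Of the neighbours of SULT1E1 on chromosome 8 that start within 1 Mb of it, 22 were tested. Only 1 of these, RUFY3, was called, where 13.3% of all tested genes were. RUFY3 averaged 913 ± 209 in SULT1E1-high and 1269 ± 205 in other endometria (-0.49 ± 0.15, adjusted p = 0.0376, and 0.164 without H4). UGT2B31, a glucuronosyltransferase in this region, averaged 1325 ± 670 and 1738 ± 612 (adjusted p = 0.388).

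The miRNA libraries of the same animals, prepared separately and not used by the rule, gave no call. None of 302 tested loci passed (0.0%, limma, smallest adjusted p = 0.190), and 25 had an unadjusted p under 0.05. No locus had all 4 SULT1E1-high animals above all others (0.0%), and 3 loci (0.993%) had all 4 below. miR-574 had 2607 in L1, 2744 in L6, 2523 in H4 and 2347 in H6, against 2930 to 4179 with a median of 3391 in the other animals (-0.41 ± 0.10, adjusted p = 0.190). miR-320 had 8935, 8466, 9594 and 9260, against 9988 to 15140 with a median of 11240 (-0.33 ± 0.10, adjusted p = 0.339). miR-150, a miRNA abundant in mature lymphocytes, had 1049, 1168, 1040 and 1177, against 1230 to 2641 with a median of 1455 (-0.53 ± 0.19, adjusted p = 0.410). The fitted ratios of these 3 loci were 0.75, 0.80 and 0.69. The smallest p among higher loci belonged to miR-32, at 1358 ± 280 and 849 ± 197 (0.69 ± 0.19, adjusted p = 0.190), followed by miR-1839-5p (0.64), miR-148a-5p (0.53) and miR-545-3p (0.89), whose groups overlapped.

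Families of miRNAs are described by their direction alone, since no locus passed. All 7 leukocyte loci were lower (median -0.14) and all 9 epithelial loci higher (median 0.22), while 148 of all 302 loci were higher and 154 lower. These directions were those of the high iCrit gilts, where all 7 leukocyte loci were lower (median -0.35) and all 9 epithelial loci higher (median 0.27). In low iCrit gilts 5 of the 7 leukocyte loci were higher (median 0.08), and 5 of the 9 epithelial loci were higher and 4 lower (median 0.03). The let-7 family had 10 of 11 loci higher over all animals (median 0.10) and in high iCrit gilts (median 0.23), but 7 of 11 lower in low iCrit gilts (median -0.02). The miR-29 and miR-30 families had 12 of 14 loci lower over all animals (median -0.12) and in low iCrit gilts (median -0.37), but 10 of 14 higher in high iCrit gilts (median 0.11). Near-identical loci share reads, so members of a family are not independent. No locus passed the test of a difference between the iCrit groups (0 of 302 by limma, 28 at an unadjusted p under 0.05, smallest adjusted p = 0.347).

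**Figure D5:**
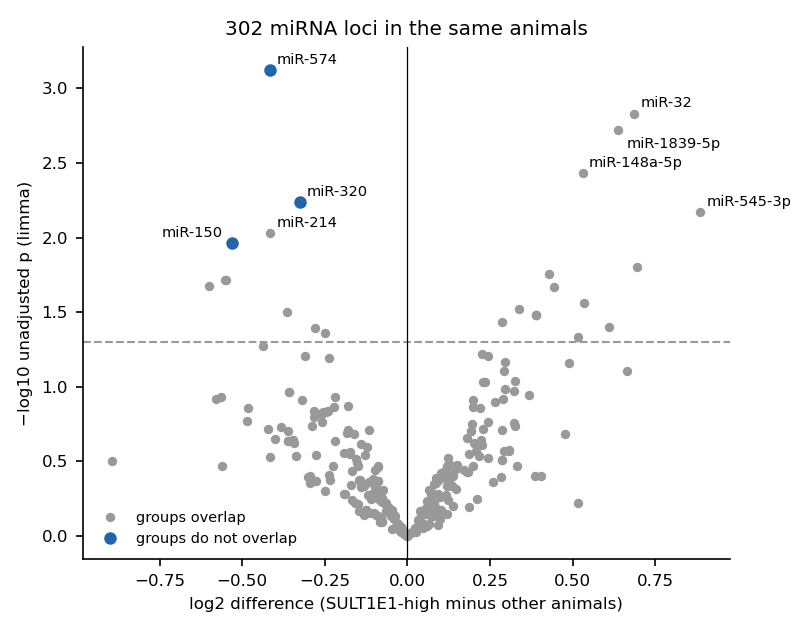
Log2 difference between SULT1E1-high and other animals (horizontal axis) against −log10 of the unadjusted limma p (vertical axis) for the 302 tested miRNA loci, with an unadjusted p of 0.05 as a dashed line. Blue points are the 3 loci with all 4 SULT1E1-high animals below all others, and the labelled loci have the 4 smallest p in each direction.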

How the data were processed

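Endometrial mRNA and miRNA of 15 gilts were analysed, 30 libraries in all, with the pair of libraries of an animal joined by the animal number in their titles. For each assay the authors deposited a table of their own normalized values, treated here as signal, which are linear with a floor of 1. Their aligner, counting tool, build and scaling were not given in the sources used here. RefSeq's Sscrofa11.1 table holds the same coordinates for 27579 of 28224 gene rows. Replicate numbers follow record order and only name an animal.

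The members and the gene lists were chosen with earlier results of these data known. Libraries with SULT1E1 over 2000 were set against the others on log2(value + 1), which understates the change of low genes, for genes above 1 in at least 7 libraries (16818 genes besides SULT1E1, 302 miRNA loci). The test was limma (3.58.1, under R 4.3.3), with its trend option and no covariates, Benjamini-Hochberg adjusted over all features of the assay and called at 0.05, so each adjusted p of the text is limma's. Differences are SULT1E1-high minus other, ± the standard error, and means carry the SD over 4 and 11 animals. Where several rows share a symbol, lists use the row with the highest mean. The fit was tested on simulated data. Library measures used exact two-sided permutations over 1365 splits. Depth was estimated from the worth of 1 read in each library, 23.5 to 63.3 M mRNA and 12.8 to 18.0 M miRNA reads (M, mega). Since the floor hides low counts, a count model was not used. The errors given measure the spread between animals.

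Named genes followed a rule. It took the 12 largest called differences in each direction among symbols whose mean reached that of the median gene (763), MMP8 and PENK, up to 4 members of each list by p, and a panel of 20 steroid, conceptus and epithelial genes. It added the 5 and 3 genes with the highest and lowest correlation with SULT1E1 among the other 11 libraries, and the 4 smallest p in each direction for miRNA loci. SULT1B1, of that panel, was not analysed here, and a few genes that the rule names are not reported here. Outside the rule and chosen after their values were seen were SCNN1A, SCNN1D, HK2, GAPDH, PKM, IFNG, RUFY3, UGT2B31, the clock genes and list members beyond the 4. Other tools were Python (3.11.15), pandas (2.3.3), numpy (2.4.6) and matplotlib (3.10.9). Other pseudocounts, filters, scalings, covariates, weights, thresholds and sets of animals were tried.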

Additional observations from a re-analysis of the deposited data

Results flagged for a closer look

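Within the 4 SULT1E1-high libraries, 13 of 163 sets of values had 1 library far from the other 3. The gap, as a share of the whole range, was over Dixon's 95% limit. That limit assumes normally distributed values, while these were linear values of genes picked by rule, so the count is a description only. In 10 of the 13 genes this library was L6. Its values were 712 for DIRAS2, where the gap took 0.927 of the range, 2169 for THY1 (0.910), 2217 for CHGA (0.906), 1787 for TGFB2 (0.958), 239 for IRF8 (0.8294), 151 for IL1B (0.981), 27.4 for CYP17A1 (0.833), 27972 for GAPDH (0.949), 10339 for ACTA2 (0.882) and 139 for IFNG (0.991). H4 was the library apart for KCNQ1 at 2945 (0.920) and for GBP2 at 494 (0.883). H6 was apart for MMP3 at 1.87 (1.0), where the other 3 stood at the floor.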

How the results depend on the processing

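The counts of 1200 higher and 1039 lower genes stayed within 1.5 times under the other pseudocount, filters, scalings, trend setting and covariates, and without the 2 libraries just below the threshold (1404 and 1156, chosen after seeing the data). They became 1935 and 1769 with quality weights per library, 654 and 480 with SULT1E1 as a continuous regressor, 595 and 392 at a threshold of 1000, and 0 and 0 at a threshold of 4000 (limma, L1 and H6 only, 1492 genes at an unadjusted p under 0.05). Within low iCrit gilts they were 73 and 24, and within high iCrit gilts 416 and 343, with fewer animals. Leaving out 1 library gave 609 to 1439 higher and 519 to 1224 lower genes, lowest without H6 (609 and 519), H4 (681 and 580) and L6 (682 and 611). The miRNA counts of 0 stayed 0 except with quality weights, where 3 loci were called higher and 1 lower. Of 149 named genes followed across the settings 121 were called, and 70 of these kept the call whichever library was left out. Direction changed in 12 of the 149, none of them called: IL1B (0.030 with a pseudocount of 10, 0.063 after quantile normalization, 1.80 within low iCrit gilts, 0.046 at a threshold of 1000, -1.22 to 0.45 with 1 library left out), STS (-0.49 within high iCrit gilts, -0.0027 continuous, -0.073 to 0.42 with 1 library left out), PTGS2 (-0.051 without the 3 libraries apart, -0.12 at 1000), MUC4 (0.10 at 4000), CYP19A1 (0.034 within low iCrit gilts, 0.16 at 1000, 0.13 at 4000), FOXA2 (0.058 with quality weights, 0.25 within high iCrit gilts, -0.32 to 0.14 with 1 library left out), UGT2B31 (0.14 within low iCrit gilts), CLOCK (-0.083 within low iCrit gilts), FOXK2 (-0.049 within low iCrit gilts), and, within low iCrit gilts, at 1000 and continuous, DAP3 (0.054, 0.049 and 0.0039), SLC5A4 (1.11, 1.08 and 0.19) and ICMT (-0.095, -0.14 and -0.023). The causes were not tested. No paired analysis was possible because the replicate numbers follow record order and only name animals, which differ between groups. Depth was close in both groups.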

Other observations

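Genes of the circadian clock, a list drawn up after called members had been seen, were mostly lower in mean in the SULT1E1-high endometria: 16 of 19 tested genes had lower means (median -0.47), 6 were called lower and none higher, against 6.18% called lower, 7.14% called higher and a median of -0.01 over all genes tested. PER2, a repressor of the clock, had 1280 in L1, 969 in L6, 916 in H4 and 1202 in H6, against a lowest of 867, a median of 2984 and a highest of 5100 in the other endometria (-1.38 ± 0.33, adjusted p = 0.0121). The groups overlapped through high iCrit replicate 7, at 867, and high iCrit replicate 5, at 1685, was the next lowest. NR1D1, a nuclear receptor that represses clock genes, averaged 686 ± 254 in SULT1E1-high and 1424 ± 464 in other endometria (-1.05 ± 0.24, adjusted p = 0.0108, and 0.0521 without H6), and its relative NR1D2 2766 ± 540 and 4783 ± 1072 (-0.77 ± 0.18, adjusted p = 0.0120, and 0.0505 without H4). CRY2 and TEF were also called lower, with adjusted p up to 0.114 and 0.116 when a library was left out. ARNTL and CLOCK, the activators of the loop, were not called (adjusted p = 0.136 and 0.627). The labels used here give no time of day.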
